A study of Mus musculus with 6 samples.

Results

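Cardiac ion channels and gap junctions were followed as 32 genes, chosen by symbol from the potassium, sodium, calcium, pacemaker and connexin genes of heart muscle. Of these, 31 had a probe set (the group of probes that reads a transcript) with 1 gene symbol, among 19938 such genes in all. The expression of Scn4a was not analysed here. The samples were left ventricles of male C57/BL6 mice, 10 weeks old, measured with 1 Affymetrix array each: 3 arrays were labelled as treated with 2-methyl-2-thiazoline (2MT), a small thiazoline compound, and 3 as treated with saline. The protocol text, which is the same for all 6 samples, gives a subcutaneous dose of 50 mg/kg of 2MT and removal of the heart 4 h later, and the series was made to study how the compound protects the heart. The labels do not say whether each array stands for its own animal, so the p-values reflect how much these arrays vary, and part of that variation may be technical.

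Each heartbeat is an action potential that sodium channels start, calcium channels prolong and potassium channels end. Potassium channels of the inward rectifier family hold the resting potential, and some of them open with falling ATP or with acetylcholine, which links excitability to metabolism and to the vagus nerve. Connexins form the gap junctions that pass the impulse from cell to cell, and pacemaker channels drive spontaneous depolarisation in the conduction system.

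The values are log2 signals, so a difference of 1 is a 2-fold difference. Genes whose mean over the 6 arrays lay below 4.345, the median over all probe sets, were treated as dim and left out of the test, which left 10547 genes and 28 of the members. The array medians ran from 4.32 to 4.37. Of the ventricular muscle markers, 10 of 10 were above the dim floor, with a mean log2 signal of 12.45 to 12.47 in saline and 12.47 to 12.50 in 2MT. On saline 2 the atrial light chain genes Myl4 and Myl7 were at 6.47 and 4.95, against at most 5.13 and 3.63 on the other arrays. The other atrial markers differed: Sln, which was dim, was also highest on saline 2, at 3.56. Nppa, the brightest, was lowest there, at 9.91 against 10.21 to 10.59 on the other arrays. Bmp10 and Dkk3 lay within the range of the other arrays. The erythrocyte gene Alas2 was at 7.07 on saline 3 and at most 5.76 elsewhere. In bulk tissue, a change in the number of cells of a type and a change in RNA per cell cannot be told apart.

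The stretch of 250 bases before the transcription start is printed for Gja1 and Kcnj5, which rose, and for Kcnj2, the member that lay lower on every 2MT array (RefSeq, GRCm38.p6, 5′ to 3′ along the gene). They are Gja1 at chr10:56377050-56377299 on the plus strand, Kcnj5 at chr9:32344345-32344594 on the minus strand and Kcnj2 at chr11:111065914-111066163 on the plus strand. Capitals mark a match to any of 4 motifs searched on both strands.
Gja1: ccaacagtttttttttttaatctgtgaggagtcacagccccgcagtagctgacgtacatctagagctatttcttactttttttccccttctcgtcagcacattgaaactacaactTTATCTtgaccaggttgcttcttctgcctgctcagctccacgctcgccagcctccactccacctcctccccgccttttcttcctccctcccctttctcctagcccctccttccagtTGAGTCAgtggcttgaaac
Kcnj5: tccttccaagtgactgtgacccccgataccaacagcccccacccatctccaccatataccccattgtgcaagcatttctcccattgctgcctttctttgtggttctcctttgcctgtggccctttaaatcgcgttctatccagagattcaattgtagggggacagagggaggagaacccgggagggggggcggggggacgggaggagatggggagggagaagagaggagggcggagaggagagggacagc
Kcnj2: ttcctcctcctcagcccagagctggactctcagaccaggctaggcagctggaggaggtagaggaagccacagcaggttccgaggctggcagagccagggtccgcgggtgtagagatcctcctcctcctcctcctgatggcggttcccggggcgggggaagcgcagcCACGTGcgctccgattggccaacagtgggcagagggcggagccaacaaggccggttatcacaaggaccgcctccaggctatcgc

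The antioxidant response element core was searched as TGACNNNGC. The AP-1 site was searched as TGANTCA, which can overlap the former. For the GATA factors only the form AGATAA was searched, and for the E-box only the form CACGTG. Other forms of these sites were not marked or counted. The Gja1 stretch held an AP-1 match whose first base lay 19 bases before the start and a GATA match at 135 bases, the Kcnj2 stretch held an E-box match at 84 bases, and the Kcnj5 stretch held none. Windows were at hand for 23 members, Scn4a included, 26 windows in all. The antioxidant core was in 2 of these windows, of Cacna1c and Kcna4, against 10.2% of 32851 windows over all genes. GATA was in 2, of Gja1 and Scn7a, against 9.99%, AP-1 in 1 against 6.75%, and the E-box in 1 against 6.02%. A match describes letters only.

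Differences in this family were small and mostly towards higher signal in 2MT hearts. Gja1, which encodes the main connexin of ventricular muscle, rose 1.33-fold. Kcnj5, a subunit of the acetylcholine-gated potassium channel, rose 1.26-fold, and Kcnj11, a pore subunit of the ATP-sensitive potassium channel, rose 1.21-fold. No member fell. With limma's test and Benjamini-Hochberg adjustment over all genes, the words rose and fell stand for an adjusted p under 0.05. By this rule 3 of 28 tested members rose, where 2.22% of all 10547 genes rose, and 0 fell, where 2.41% of all genes fell. The members were chosen with earlier results of these data known, so these shares describe the list and are no independent test.

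Before adjustment, p was under 0.05 for 8 members, 7 higher (9.60% of all genes) and 1 lower (8.15% of all genes). All 2MT arrays lay above all saline arrays for 5 members (11.1% of all genes) and below for 1 (10.1% of all genes). The mean was higher in 2MT for 24 of the 28 (85.7%), as it was for 50.8% of all genes. Of the other 4, Kcnj2, Kcnd3 and Cacna1g were lower and Kcna5 was equal. A higher mean was also seen for 8 of the 10 ventricular muscle markers (80.0%) and for 33 of 52 related genes (63.5%) described below. The median difference was 0.09 over the members and 0.00 over all genes tested, and the members ran from -0.26 to 0.41. Under quantile normalization, median centring and cyclic loess the same 3 members were called.

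**Figure D1:**
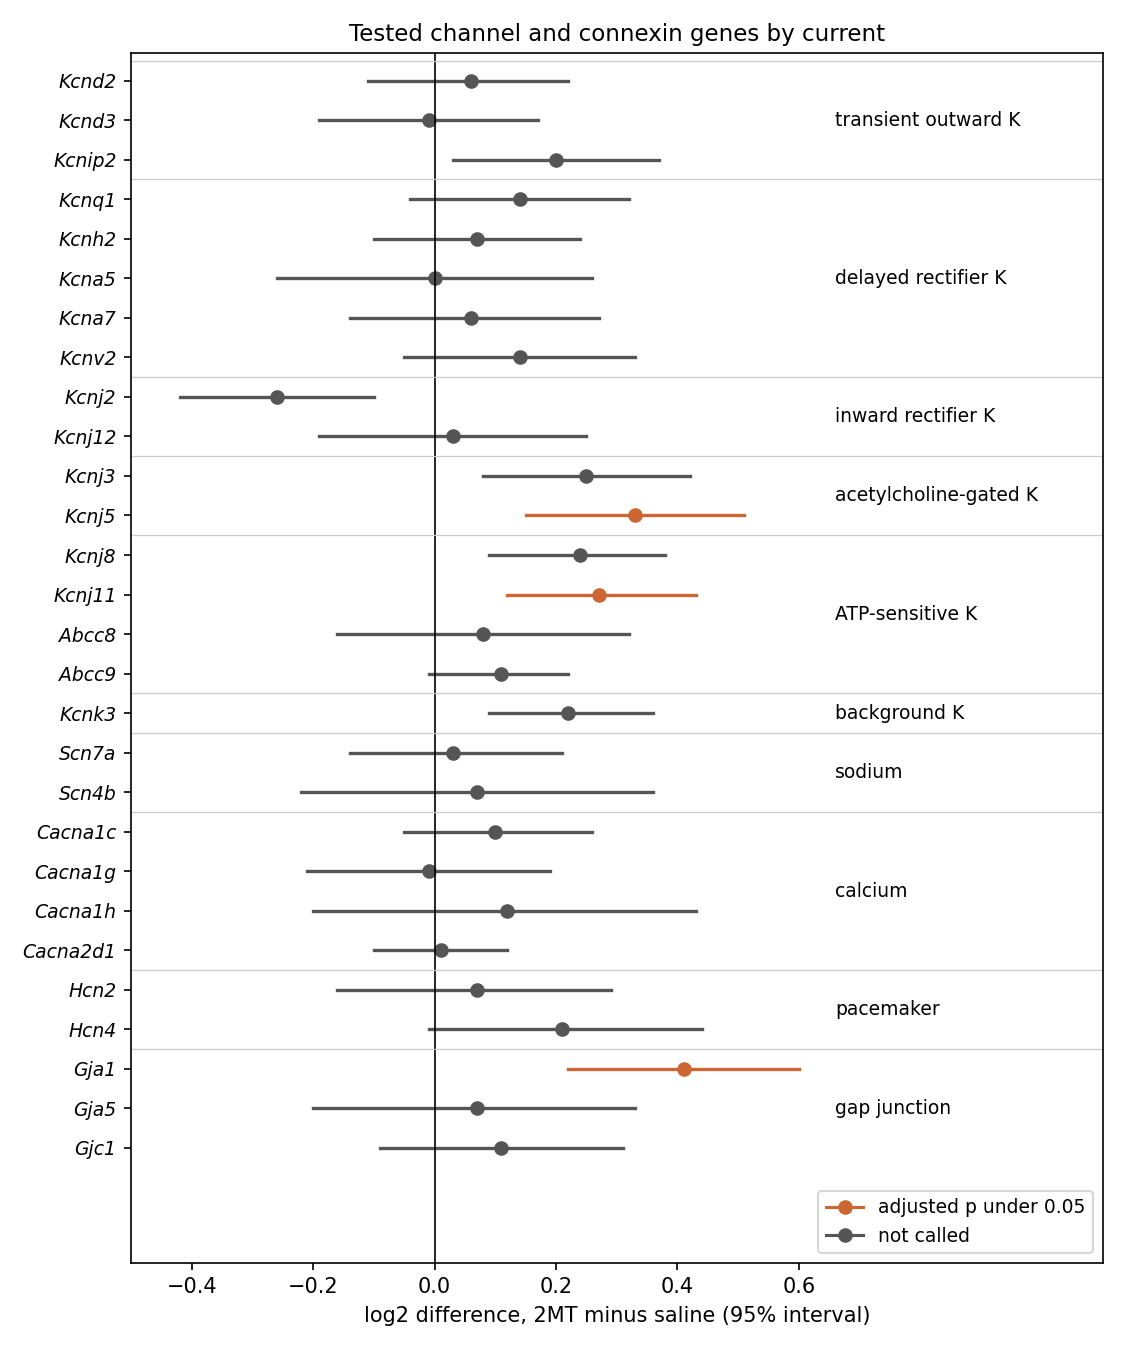
Log2 difference of 2MT minus saline (x axis) for the 28 tested members (y axis, grouped by current), with the 95% interval of the limma fit. Orange marks Gja1, Kcnj5 and Kcnj11, which rose; Kcnj2 is the member whose interval lies wholly below 0.

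Gja1 gave the largest difference of the members. Its log2 signal was 8.48, 8.83 and 8.43 in saline and 8.89, 9.06 and 9.01 in 2MT. The groups did not overlap, and saline 2 came close to the lowest 2MT array. The means were 8.58 ± 0.22 and 8.99 ± 0.09 (SD, n = 3), a difference of 0.41 ± 0.09 (SE, 95% interval 0.22 to 0.60, limma adjusted p = 0.0164). Fibroblasts can also carry Gja1, and the mean of 8 fibroblast markers was 6.88 to 6.92 in saline and 6.82 to 7.01 in 2MT. The part of fibroblasts in the difference of Gja1 was not tested. Over 16 alternatives the difference ran from 0.33 to 0.53. The adjusted p was above 0.05 when saline 1 (0.0798), 2MT 2 (0.0897) or 2MT 3 (0.0814) was left out, with a separate test of each probe set (0.0553) and without the variance trend (0.0872).

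The other connexins did not pass. Gja5, a connexin of the atria and the fast conduction system, was at 4.39, 4.66 and 4.36 in saline and 4.70, 4.57 and 4.34 in 2MT. The groups overlapped around a difference of 0.07 (95% interval -0.20 to 0.33), close to the dim floor. Gjc1, a connexin of the conduction nodes, was at 5.24, 5.18 and 5.11 in saline and 5.38, 5.16 and 5.31 in 2MT, a difference of 0.11 (95% interval -0.09 to 0.31). On each array the signal of Gja5 was subtracted from that of Gja1, and this gap was 0.34 ± 0.14 (SE) larger in 2MT, with no overlap of the groups. The exact two-sided permutation test gave p = 0.10, the smallest that 3 against 3 arrays allow, and 0.56 adjusted over the 14 pairs of partner genes compared. For Gja1 and Gjc1 the gap was 0.30 ± 0.17 larger, with p = 0.20 in the exact permutation test.

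Subunits of the acetylcholine-gated potassium channel, which slows the heart on vagal stimulation, were both higher in their means. Kcnj5 was at 6.39, 6.66 and 6.56 in saline and 6.78, 6.86 and 6.97 in 2MT, so the groups did not overlap. Its means were 6.54 ± 0.14 and 6.87 ± 0.10 (SD, n = 3), a difference of 0.33 ± 0.08 (SE, 95% interval 0.15 to 0.51, limma adjusted p = 0.0347). It did not pass when saline 1 (0.139), 2MT 2 (0.107) or 2MT 3 (0.181) was left out, with no dim filter (0.0583), with a separate test of each probe set (0.0713) and without the variance trend (0.0863). Kcnj5 is abundant in atrial muscle. Saline 2, with the highest Myl4 and Myl7 but the lowest Nppa of all arrays, had the highest Kcnj5 of the saline arrays. Its partner Kcnj3 was highest on saline 3 among the saline arrays. Without saline 2 the difference of Kcnj5 was 0.40 (adjusted p = 0.0304). The part of atrial tissue in this difference was not tested beyond that.

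Kcnj3, the partner of Kcnj5 in the same channel, was at 7.33, 7.42 and 7.58 in saline and 7.55, 7.79 and 7.74 in 2MT. Here 2MT 1 lay just under saline 3. The difference of 0.25 ± 0.08 (SE, 95% interval 0.08 to 0.42) did not pass (limma adjusted p = 0.102). It passed without saline 3 (0.0348) or 2MT 1 (0.0498) and with array weights (0.0499), and with saline 2 left out it was 0.24 (0.223). The change of Kcnj3 minus that of Kcnj5 was -0.08 ± 0.09 (SE), with p = 0.60 in the exact permutation test.

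The ATP-sensitive potassium channel pairs an inward rectifier pore with a sulfonylurea receptor and opens when ATP falls. Kcnj11, the pore of ventricular muscle, was at 6.86, 6.79 and 6.77 in saline and 7.16, 6.97 and 7.11 in 2MT. The groups did not overlap, and the saline arrays lay within a narrow band. The means were 6.81 ± 0.05 and 7.08 ± 0.10 (SD, n = 3), a difference of 0.27 ± 0.07 (SE, 95% interval 0.12 to 0.43, limma adjusted p = 0.0432). Only the set without 2MT 2 kept the call among those with 1 array left out (0.0427). The adjusted p was 0.0728 when saline 1 was left out, 0.111 for saline 2, 0.0821 for saline 3, 0.15 for 2MT 1 and 0.175 for 2MT 3. It was also above 0.05 with no dim filter (0.0738), with a separate test of each probe set (0.0706) and without the variance trend (0.0954).

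Kcnj8, the pore known from vascular muscle and pericytes, was at 7.02, 7.01 and 6.91 in saline and 7.25, 7.15 and 7.25 in 2MT. The groups did not overlap, but the difference of 0.24 ± 0.07 (SE, 95% interval 0.09 to 0.38) did not pass (limma adjusted p = 0.0592). With the stricter dim filter, which leaves fewer genes to adjust over, it passed (0.0495). The other 4 pericyte markers, without Kcnj8 and Abcc9 (left out of the list after its values were seen), had a mean of 6.81 to 6.84 in saline and 6.80 to 6.86 in 2MT. The 6 smooth muscle markers had a mean of 5.72 to 5.81 and 5.64 to 5.86. The part of these cells in the difference of Kcnj8 was not tested.

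The receptor subunits did not pass, and their groups overlapped. Abcc9, the receptor of cardiac and vascular channels, was at 9.71, 9.81 and 9.83 in saline and 9.80, 9.94 and 9.93 in 2MT, a difference of 0.11 (95% interval -0.01 to 0.22, limma adjusted p = 0.326). Abcc8, the receptor known from pancreatic beta cells, was at 5.49, 5.68 and 5.91 in saline and 5.65, 5.93 and 5.74 in 2MT, a difference of 0.08 (95% interval -0.16 to 0.32). In the mouse gene table each pore gene stands next to a receptor gene, Kcnj11 beside Abcc8 and Kcnj8 beside Abcc9, with 0 protein-coding genes between them. The change of Kcnj11 exceeded that of Kcnj8 by 0.04 ± 0.04 (SE) and that of Abcc9 by 0.17 ± 0.12, with p = 0.50 and p = 0.20 in the exact permutation test.

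**Figure D2:**
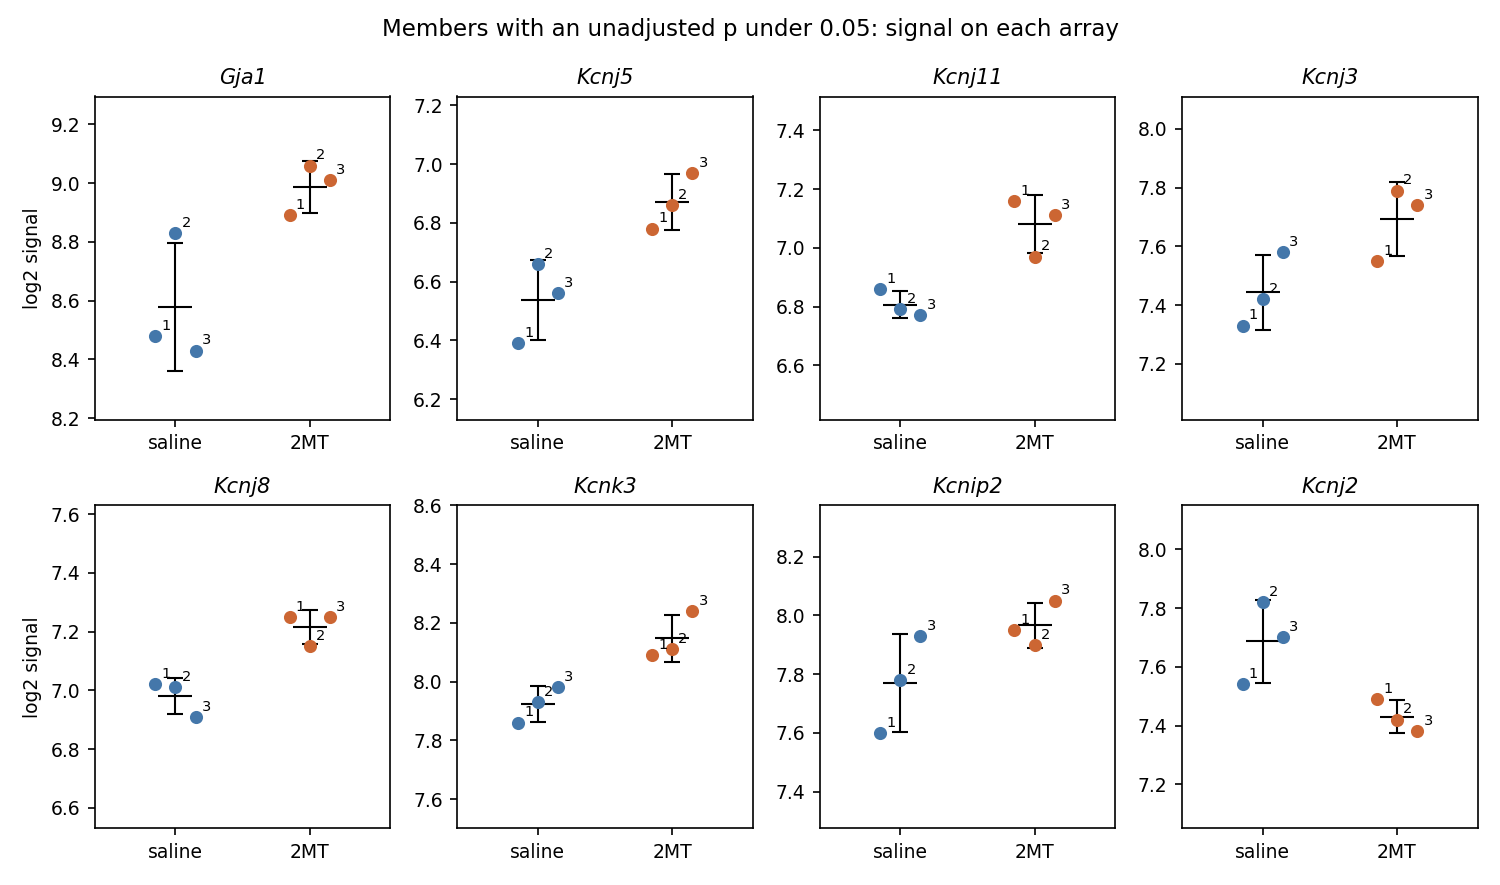
Log2 signal (y axis) on each of the 3 saline and 3 2MT arrays for the 8 members with an unadjusted p under 0.05, each panel spanning the same height. Numbers beside points are replicate numbers, and bars are the mean and SD. The groups separate for Gja1, Kcnj5, Kcnj11, Kcnj8, Kcnk3 and, downwards, Kcnj2.

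Kcnj2, the main inward rectifier that holds the resting potential of ventricular muscle, went the other way. It was at 7.54, 7.82 and 7.70 in saline and 7.49, 7.42 and 7.38 in 2MT. All 2MT arrays lay below all saline arrays, with saline 1 closest to them. The difference of -0.26 ± 0.07 (SE, 95% interval -0.42 to -0.10) did not pass (limma adjusted p = 0.0661). It passed without saline 1, at -0.33 (0.027), and was -0.19 without saline 2 (0.23). It also passed with array weights (0.0463), and was negative in 16 of 16 alternatives. With groups that do not overlap, leaving out 1 array could not reverse this sign, and several other alternatives leave the difference itself as it is. Kcnj12, its relative in the same current, was at 5.80, 5.95 and 6.24 in saline and 5.99, 5.99 and 6.10 in 2MT, a difference of 0.03 (95% interval -0.19 to 0.25). The change of Kcnj2 minus that of Kcnj12 was -0.29 ± 0.14 (SE), with p = 0.20 in the exact permutation test.

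Kcnk3, an acid-sensitive background potassium channel, was at 7.86, 7.93 and 7.98 in saline and 8.09, 8.11 and 8.24 in 2MT. The groups did not overlap, and the difference was 0.22 ± 0.06 (SE, 95% interval 0.09 to 0.36, limma adjusted p = 0.0571). It passed without saline 3 (0.0445) and with array weights (0.0348).

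The transient outward current repolarises the mouse ventricle early and fast. Its accessory subunit Kcnip2 was at 7.60, 7.78 and 7.93 in saline and 7.95, 7.90 and 8.05 in 2MT. The saline arrays were spread, and saline 3 lay above 2MT 2. The difference was 0.20 ± 0.08 (SE, limma adjusted p = 0.203), and with 1 array left out it ran from 0.11 without saline 1 (0.528) to 0.28 without saline 3 (0.0465), where it passed. The pore subunit Kcnd2 was at 6.91, 6.91 and 6.90 in saline and 6.84, 7.13 and 6.92 in 2MT, with 2MT 2 alone above the rest (0.06, 95% interval -0.11 to 0.22). Kcnd3, the other pore subunit of the fast component, was at 5.54 ± 0.06 and 5.53 ± 0.07 (SD, n = 3). Kcna4, the pore of the slow component, was dim at 3.54, 3.51 and 3.72 in saline and 3.79, 3.70 and 3.92 in 2MT, and was not tested with the other members.

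The delayed rectifier genes showed no call: 0 of 5 tested passed in limma, and 0 had an unadjusted p under 0.05. Kcnq1, the pore of the slow delayed rectifier, was at 5.85 ± 0.11 in saline and 5.98 ± 0.06 in 2MT (SD, n = 3; difference 0.14, 95% interval -0.04 to 0.32). Its partner Kcne1 was dim, at 4.17 ± 0.20 and 4.27 ± 0.14. Kcnh2, the pore of the rapid delayed rectifier, was at 7.02 ± 0.15 and 7.09 ± 0.06. Kcna5, the pore of the ultrarapid current, had equal means of 5.67 in both groups, with saline 1 at 5.97 and the other saline arrays at 5.55 and 5.48. With 1 array left out its difference ran from -0.09 to 0.15, the highest being without saline 1. Kcna7 was at 5.03 ± 0.11 and 5.09 ± 0.07, and Kcnv2, a silent subunit that modifies other potassium channels, at 5.87 ± 0.11 and 6.01 ± 0.13. The widest of these intervals, that of Kcna5, ran from -0.26 to 0.26.

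Calcium channel genes did not pass either, with 0 of 4 tested in limma and 0 at an unadjusted p under 0.05. Cacna1c, the pore of the cardiac L-type channel, was at 8.50, 8.64 and 8.36 in saline and 8.53, 8.70 and 8.58 in 2MT, with overlapping groups (0.10, 95% interval -0.05 to 0.26). Its auxiliary subunit Cacna2d1 was read by 2 probe sets, which gave differences of 0.01 and 0.07, the first being the brighter, with a 95% interval of -0.10 to 0.12. The T-type pores Cacna1g and Cacna1h, which are more active in fetal and pacemaking cells, did not pass. Cacna1g was at 5.01 ± 0.07 in saline with a difference of -0.01 (95% interval -0.21 to 0.19), and Cacna1h at 4.60 ± 0.09 in saline and 4.72 ± 0.35 in 2MT (SD, n = 3). The spread of Cacna1h in 2MT came from 2MT 1, at 4.32 against 4.89 and 4.95, and with 1 array left out its difference of 0.12 ran from 0.00 without 2MT 3 to 0.32 without 2MT 1. Cacnb2, the beta subunit that brings the L-type pore to the membrane, was dim, at 2.76, 2.66 and 2.92 in saline and 2.94, 3.07 and 2.94 in 2MT. All 2MT arrays of Cacnb2 lay above the saline arrays, and with no dim filter its difference of 0.20 had an adjusted p of 0.56 in limma.

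Of the sodium channel genes, Scn4b, an auxiliary subunit, was at 5.06 ± 0.23 in saline and 5.13 ± 0.24 in 2MT (SD, n = 3), and Scn7a, a sodium channel relative that does not gate on voltage in the usual way, at 7.23 ± 0.12 and 7.27 ± 0.13. Neither passed in limma, and the interval of Scn4b was wide, from -0.22 to 0.36. Of the pacemaker channels, Hcn4, the main isoform of the sinus node, was at 5.72, 5.34 and 5.66 in saline and 5.68, 5.88 and 5.80 in 2MT (difference 0.21, 95% interval -0.01 to 0.44, limma adjusted p = 0.312). Saline 2 was the lowest array, and without it the difference was 0.10 (0.679). Hcn2, the isoform more typical of ventricular muscle, was at 5.90 ± 0.22 and 5.96 ± 0.07. The 7 other conduction system markers, of which 4 were above the dim floor, had a mean of 4.56 to 4.63 in saline and 4.64 to 4.69 in 2MT, so the groups did not overlap. Their genes went different ways, with Irx3 higher by 0.43 (adjusted p = 0.0278 in limma) and Tbx3 at -0.28 (0.206), and the part of these cells in the difference of Hcn4 was not tested.

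**Figure D3:**
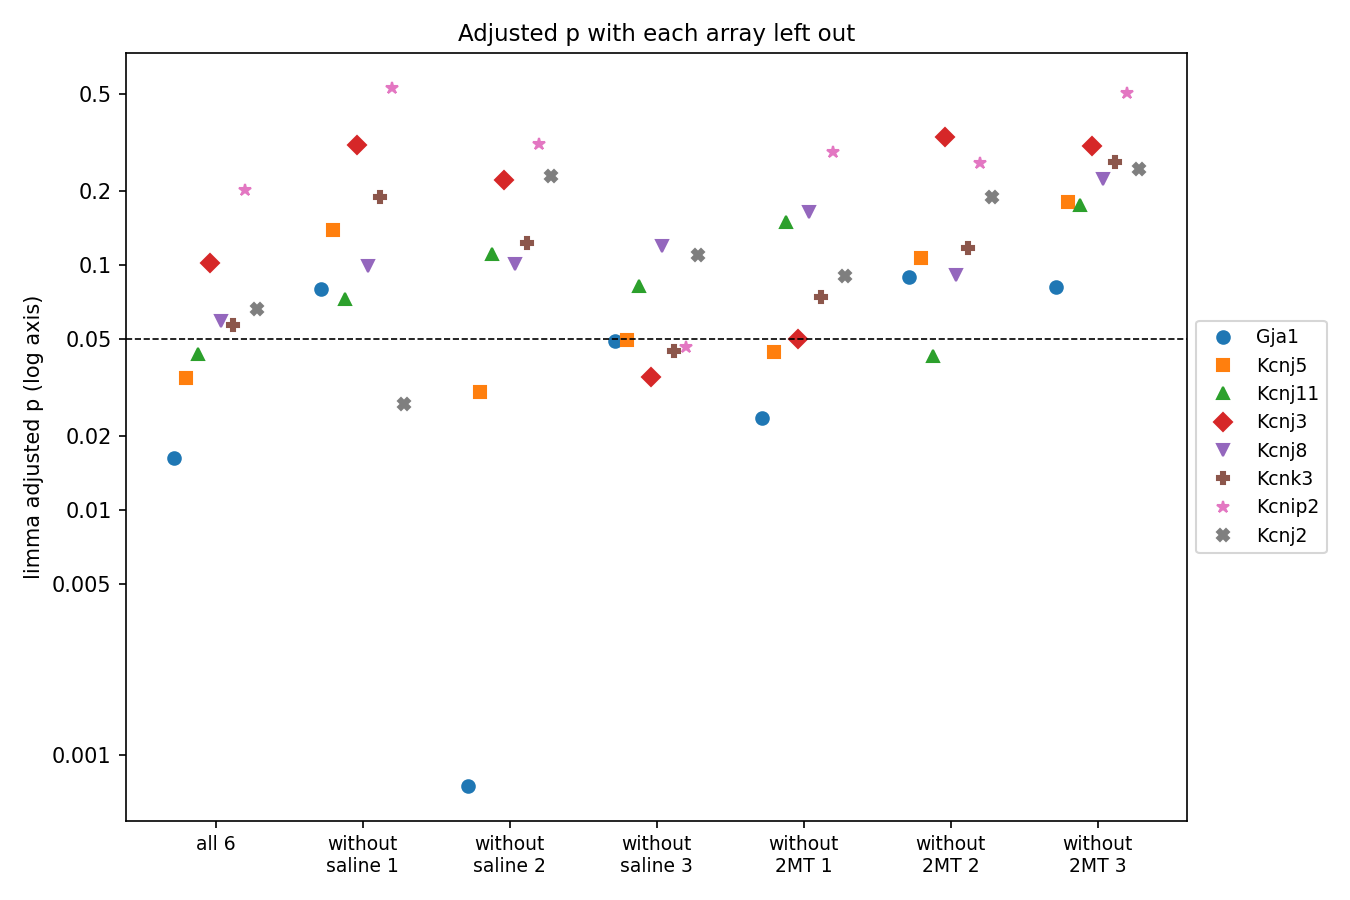
Limma adjusted p (y axis, log scale) of the 8 members with an unadjusted p under 0.05, over all 6 arrays and with each array left out (x axis). The dashed line is the threshold of 0.05, and each of the 3 called members crosses it for at least 3 of the arrays left out.

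The number of members called changed with the arrays used. It was 1 without saline 1 (Kcnj2 alone), 2 without saline 2, 5 without saline 3, 3 without 2MT 1 and 1 without 2MT 2 (Kcnj11 alone). Without 2MT 3 it was 0 in limma, with 7 members at an unadjusted p under 0.05. The count over all genes changed too, from 262 called without 2MT 3 to 648 without saline 3. The differences of Gja1, Kcnj5, Kcnj11, Kcnj3, Kcnj8, Kcnk3 and Kcnip2 were positive in 16 of 16 alternatives each. This sign could hardly change. The dim filter, variance trend, replicate block and threshold leave the difference itself as it is. Where the groups do not overlap, leaving out 1 array cannot reverse it.

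Other genes of cardiac excitability were read from 9 lists of 115 genes, of which 100 had a probe set and 52 were tested. In limma 5 rose, where 2.22% of all genes rose, and 2 fell, where 2.41% of all genes fell. These lists too were chosen with earlier results known, so the shares are no independent test. The mean was higher in 2MT for 33 of 52 (63.5%, against 50.8% of all genes), with a median difference of 0.03 against 0.00 over all genes. Of 11 tested transcription factors of conduction and ventricular channel genes, 3 rose. Gata4, a factor of heart muscle genes, was at 7.54, 7.67 and 7.69 in saline and between 7.91 and 8.02 in 2MT, and rose by 0.34 ± 0.06 (SE, adjusted p = 0.00609). The groups stood clearly apart, and it passed in 16 of 16 alternatives. Irx4, a ventricular Iroquois factor, rose by 0.42 ± 0.08 (adjusted p = 0.00963), from 6.23 ± 0.13 to 6.65 ± 0.09 (SD, n = 3), and lost its call without 2MT 3 (0.0691). Irx3, an Iroquois factor of the fast conduction system, rose by 0.43 ± 0.10 (adjusted p = 0.0278), from 6.51, 6.75 and 7.03 in saline to 7.22, 7.15 and 7.21 in 2MT. With 1 array left out, Irx3 passed only without saline 3. The adjusted p was 0.0976 when saline 1 was left out, 0.0858 for saline 2, 0.0859 for 2MT 1, 0.0828 for 2MT 2 and 0.117 for 2MT 3. It was also above 0.05 with a separate test of each probe set (0.075) and without the variance trend (0.0933).

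Rrad and Gem, small GTPases that inhibit the L-type calcium channel, moved in opposite directions, among 6 tested genes of their list. Rrad was at 8.03, 8.39 and 7.89 in saline and 8.78, 8.44 and 8.54 in 2MT, and rose by 0.48 ± 0.11 (SE, limma adjusted p = 0.0212). Gem was at 5.23, 4.91 and 4.82 in saline and 4.42, 4.53 and 4.61 in 2MT, and fell by 0.47 ± 0.12 (adjusted p = 0.0381). The groups did not overlap for either gene, though saline 2 came close to 2MT 2 for Rrad. For Rrad the adjusted p was 0.091 when saline 1 was left out, 0.0645 for saline 3, 0.0908 for 2MT 1 and 0.072 for 2MT 3. It was also above 0.05 with a separate test of each probe set (0.0708) and without the variance trend (0.0964). For Gem it was 0.153 when saline 1 was left out, 0.0674 for saline 2, 0.127 for 2MT 1, 0.11 for 2MT 2 and 0.0796 for 2MT 3. Gem did not pass either with no dim filter (0.0645), with a separate test of each probe set (0.0808) and without the variance trend (0.0549).

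Of 7 tested chloride channel genes, Lrrc8a fell and Clcn1 rose. Lrrc8a, the essential subunit of the volume-regulated anion channel, was at 8.26, 8.17 and 8.05 in saline and 7.82, 7.82 and 7.66 in 2MT, and fell by 0.39 ± 0.07 (SE, limma adjusted p = 0.00469). It passed in 16 of 16 alternatives. Clcn1, the chloride channel of skeletal muscle, was near the dim floor, at 4.53, 4.68 and 4.45 in saline and between 4.80 and 5.17 in 2MT, and rose by 0.44 ± 0.11 (adjusted p = 0.0452). The adjusted p was 0.124 when saline 1 was left out, 0.0527 for saline 2, 0.103 for saline 3, 0.171 for 2MT 1 and 0.141 for 2MT 2. Clcn1 did not pass either with no dim filter (0.076), a separate test of each probe set (0.0894), no variance trend (0.0572) or array weights (0.0645). The 7 skeletal muscle markers, of which 3 were above the dim floor, had a mean of 4.62 to 4.72 in saline and 4.70 to 4.75 in 2MT. The part of skeletal muscle in the difference of Clcn1 was not tested.

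**Figure D4:**
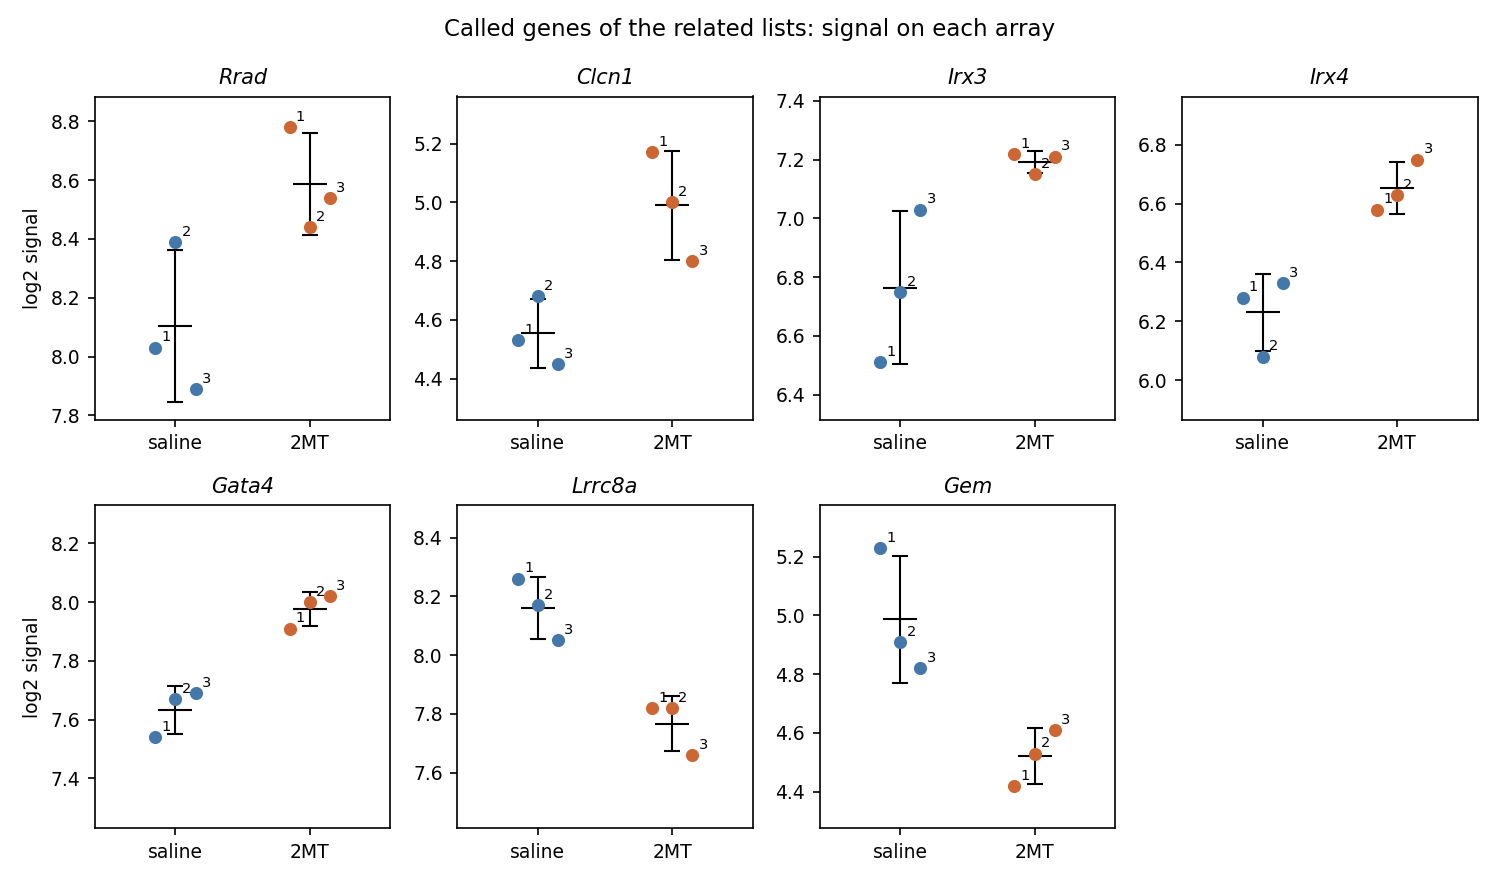
Log2 signal (y axis) on each array for the 7 called genes of the related lists, with the mean and SD as bars and replicate numbers beside the points. The groups separate in each panel, with Gata4, Irx4 and Lrrc8a furthest apart relative to the spread of the arrays.

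The other lists gave 0 calls in limma. Over all 10547 genes tested, 1873 had an unadjusted limma p under 0.05 (9.60% of all genes higher and 8.15% lower). Of 6 other potassium channel subunits tested 3 had an unadjusted p under 0.05, the lowest being those of Kcnk1 (-0.43, adjusted p = 0.0879) and Kcnn2 (0.20, adjusted p = 0.175). Of 2 sodium channel subunits and partners 1 did, Fgf13 (0.23, adjusted p = 0.211), with Gpd1l at -0.12. Of 5 connexins and junction partners 1 did, Tjp1, a scaffold protein that binds the Gja1 protein (0.19, adjusted p = 0.20), with Gja3 at 0.13. Of 5 pumps and exchangers 1 did, Atp1b2 (0.25, adjusted p = 0.174), with Fxyd1 at -0.07, and of 10 anchoring and trafficking genes 2 did, Tmem65 (0.16, adjusted p = 0.13) and Cav3 (0.15, adjusted p = 0.224). Of the other pacemaker channels 0 were tested, so that list gave no value. With 1 array left out, Fgf13 ran from 0.13 without saline 1 (0.538) to 0.33 without saline 3 (0.0478). Kcnk1 ran from -0.58 without 2MT 2 (0.0301) to -0.34 without 2MT 1 (0.257). With 1 array left out, Fgf13 passed only without saline 3 and Kcnk1 only without 2MT 2.

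Of the cell type lists, 1 gene outside the channel and factor lists changed: Pecam1, an endothelial adhesion molecule, fell by 0.33 ± 0.07 (SE, limma adjusted p = 0.020). The adjusted p was 0.0936 when saline 1 was left out, 0.0858 for saline 2, 0.092 for 2MT 2 and 0.112 for 2MT 3. It was also above 0.05 with a separate test of each probe set (0.0524) and without the variance trend (0.0891). Of the 8 endothelial markers, 4 were lower in 2MT and 4 were higher, among them Kdr at 0.24 and Emcn at 0.20, neither called. The mean of all 8 was 7.51 to 7.70 in saline and 7.57 to 7.75 in 2MT. It was 6.16 to 6.41 and 6.18 to 6.36 for the 7 macrophage markers. For the 6 neuron and Schwann cell markers, of which 2 were above the dim floor, it was 3.80 to 3.90 and 3.81 to 3.85. For the 6 atrial markers, 2 of them above the dim floor, it was 4.72 to 5.28, the highest value being that of saline 2, and 4.72 to 4.74. The 3 erythrocyte markers, 2 of them above the floor, had a mean of 5.04 to 5.97, the highest being saline 3, and 5.09 to 5.38. The part of the atrial and erythrocyte signal in the differences of members was not tested beyond leaving out those arrays.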

How the data were processed

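Per the labels' protocols, Trizol was used to isolate RNA, and 100 ng of it was labelled for 1 Affymetrix array per sample. The values deposited by the authors, 1 for each probe set on each array, ran from 0.51 to 13.50 and were read as log2 signals for that reason. MAS5 is named in the submitters' processing notes without a role, and the normalization is not given in the sources used here. No scanner files were used, so background correction could not be varied, detection is unknown, and array number limits precision.

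Of 28944 probe sets, 21789 had 1 gene symbol in the platform annotation, 1621 several and 5534 none here. Entrez IDs of 21698 of the first were found in the RefSeq mouse table, which altered 0 symbols. The brightest probe set on average stood for each of 19938 genes. Groups came from the labels' treatment and were compared across 10547 genes with limma 3.58.1 in R 4.3.3 (variance trend, two-sided, Benjamini-Hochberg adjustment), and adjusted p values come from it, apart from those of the partner pairs. Figures used matplotlib 3.10.9 in Python 3.11.15. The procedure was tested on simulated data. Partner genes were compared with an exact permutation test on within-array differences, adjusted over the pairs.

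The members and lists were chosen with earlier results of these data known. Every member with a probe set is named. Of the related lists, called genes are named, or else the 2 with the smallest p, and of the marker lists called genes. In the closing section and above, alternatives changed 1 choice at a time: normalization, dim filter (none, or 1 log2 unit higher), probe set rule, variance trend, array weights, replicate block, threshold and each array left out.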

Additional observations from a re-analysis of the deposited data

How the results depend on the processing

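Of the single members' values under the alternatives, 395 of 442 kept their side of the threshold and did not count as changing sign. Of the rest, 19 lost a call, 11 gained one and 17 changed sign, each of these last between values that were not called. A difference that rounds to 0.00 was given no direction, so Kcna5, with equal means, could not count as changing sign. The count of genes called was 488. Without the variance trend it was 292, and at an adjusted p under 0.1 it was 768. With 1 array left out it ran from 262 (without 2MT 3) to 648 (without saline 3). The count of members called was 3. It was 1 with no dim filter, and 0 with a separate test of each probe set and without the variance trend, where 8 and 7 members had an unadjusted p under 0.05 in limma. It was 6 with array weights, 6 at an adjusted p under 0.1, and 0 to 5 with 1 array left out. The count of related genes called was 7. It was 3 with a separate test of each probe set and 3 without the variance trend, and 3 to 8 with 1 array left out. The cause of these shifts was not tested. Leaving out an array also lowers the degrees of freedom, and dropping the dim filter also raises the number of genes to adjust over.

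With 1 array left out, the log2 differences that changed sign ran from -0.02 to 0.19 for Abcc8, -0.05 to 0.02 for Cacna1g, -0.01 to 0.04 for Cacna2d1, -0.02 to 0.17 for Gja5, -0.04 to 0.18 for Hcn2, -0.03 to 0.12 for Kcnd2, -0.05 to 0.02 for Kcnd3, -0.07 to 0.15 for Kcnj12, -0.06 to 0.17 for Scn4b and -0.04 to 0.09 for Scn7a. For the pairs, the difference in change ran from -0.06 to 0.09 for Abcc9 minus Abcc8, -0.24 to 0.03 for Cacna1c minus Cacnb2 and -0.06 to 0.12 for Kcnq1 minus Kcne1. The replicate numbers are shared by the groups. Same-numbered arrays deviated together only weakly (r = 0.07, 0.04 and 0.02 across genes, which are not independent replicates). With so few arrays per group, these values cannot decide whether the numbers pair the samples. The replicate block gave 5 members called, with Kcnj3 (0.0395) and Kcnk3 (0.0372) added, 586 genes and 8 related genes, with Kcnk1 (0.0481) added. The 28944 probe sets carry no detection calls here, so signal over background limits what can be said of dim members such as Cacnb2, Kcna4 and Kcne1.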
